A study of Homo sapiens with 8 samples.

Results

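The genes described here belong to the amino acid response driven by the transcription factor ATF4. They are a list of 44 ATF4 targets, serine and proline enzymes, amino acid transporters and cytosolic tRNA synthetases, chosen by function and name. Earlier results of these data were known when the list was chosen. Of the 44 genes, 40 are among the 13546 genes of the count table. NUPR1, ALDH1L2, CBS and STC2 were not analysed here. RNA came from tumours grown in nude mice, which lack a working thymus and so mature T cells, after injection of MDA-MB-231 cells. This established human line models triple-negative breast cancer, the form without oestrogen receptor, progesterone receptor or raised HER2. One group of 4 tumours carried intact CDK4 (CDK4WT) and the other group of 4 was labelled knockout for CDK4 (CDK4KO). No further allele or agent is named. How CDK4 was disrupted, whether the cells were 1 clone, how long the tumours grew and whether each came from its own mouse: none of these is stated in the labels. P-values therefore measure only the spread between these libraries.

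When an amino acid runs short, uncharged tRNA activates the kinase GCN2, which phosphorylates the translation factor eIF2. Most protein synthesis then slows while the ATF4 protein is made in larger amounts from mRNA that is already present, so ATF4 mRNA need not follow ATF4 activity. ATF4 pairs with C/EBP family proteins on C/EBP-ATF response elements and raises genes that make, import and charge amino acids. It also raises TRIB3, CHAC1 and SESN2, which limit or redirect growth signals. The kinase mTORC1 raises ATF4 output in growing tumour cells as well, which ties the same genes to the supply of serine, cystine and nucleotides.

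The DNA letters that these genes share were read from RefSeq promoter windows (GRCh38.p14), which run from 250 bases before a start to 50 after it. At least 1 window was found for 36 of the 44 listed genes. The core of the response element, searched as TGATGNAA on either strand, was present in a window of 15 of these 36 genes, or 41.7%. Of all genes with a window 4.46% held it, and of genes of the count table with a window 2.80%. Counted by window, 15 of 58 member windows (25.9%) and 3.62% of all 35116 windows held it. The list was chosen to hold ATF4 targets, so these shares are no independent result about it. The narrower form TGATGCAA, which the wider form contains, was present in 10 of 36 members (27.8%), against 1.08% of all genes. The tRNA synthetase group held the wider form in 7 of 11 genes and the transporter group in 4 of 6. None of the 3 serine and one-carbon enzymes with a window had it. Sites of 3 regulated enzymes or factors and of 7 synthetases are shown, because the same core, in either orientation, stands near a RefSeq start of genes that load different amino acids. Capitals mark the core, and each site is written 5′ to 3′ on the strand of its gene.
ASNS (chr7:97872458-97872487, minus strand): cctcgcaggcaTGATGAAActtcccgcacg
CEBPG (chr19:33374060-33374089, plus strand): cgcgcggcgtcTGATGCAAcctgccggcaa
CHAC1 (chr15:40953251-40953280, plus strand): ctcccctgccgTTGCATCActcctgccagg
AARS1 (chr16:70289675-70289704, minus strand): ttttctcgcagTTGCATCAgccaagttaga
GARS1 (chr7:30594834-30594863, plus strand): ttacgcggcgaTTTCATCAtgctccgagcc
IARS1 (chr9:92293692-92293721, minus strand): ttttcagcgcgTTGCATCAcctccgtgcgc
MARS1 (chr12:57488053-57488082, plus strand): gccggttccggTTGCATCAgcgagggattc
CARS1 (chr11:3057407-3057436, minus strand): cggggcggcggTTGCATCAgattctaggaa
TARS1 (chr5:33440956-33440985, plus strand): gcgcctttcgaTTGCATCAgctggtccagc
NARS1 (chr18:57621804-57621833, minus strand): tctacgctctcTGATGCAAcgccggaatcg

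Distances here are from the RefSeq start of the window. The gene coordinates given below are those of GENCODE 29, whose gene starts can differ from it, as for CHAC1. In 6 of the 7 synthetases with the core it began within 33 bases of the RefSeq start. CARS1 had it 2 bases upstream, MARS1 4, IARS1 13 and GARS1 33, while TARS1 and NARS1 had it 2 and 14 bases downstream. AARS1 had it 187 bases upstream, ASNS 68, CEBPG 42 and CHAC1 209. A match describes letters, not a bound site. For genes without one, such as ATF5 and SLC38A2, it says only that these letters are not in their windows. The 15 members with the core had a median log2 fold change (CDK4KO minus CDK4WT) of 0.01, with 8 positive and 7 negative. The 19 measured members with a window that lacked it had a median of 0.02, with 10 positive and 9 negative.

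**Figure D1:**
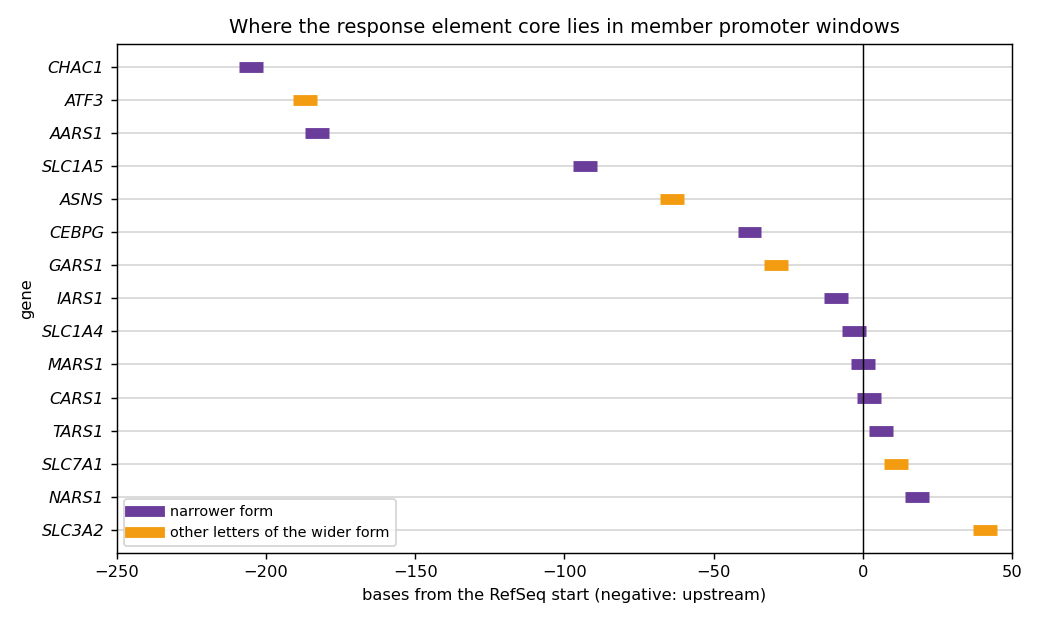
Position of the response element core in the promoter windows of the 15 members that hold it. The x axis gives bases from the RefSeq start, each bar spans the 8 letters, and colour separates the narrower form (10 genes) from the other letters of the wider form (5 genes). Those of IARS1, MARS1, CARS1, TARS1 and NARS1 begin within 14 bases of the start, while those of CHAC1, ATF3 and AARS1 begin 187 to 209 bases upstream.

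Library totals ran from 27840883 to 33617977 counts and did not separate the genotypes (exact two-sided permutation test, p = 0.83). CDK4 mRNA was measured at 115, 107, 116 and 112 CPM (CPM are counts scaled by TMM to a common library size) in CDK4WT replicates 1 to 4. In CDK4KO replicates 1 to 4 it was 111, 119, 125 and 134 CPM, so the targeted gene was not lower in the libraries labelled knockout (log2 fold change 0.12 ± 0.06, SE; edgeR adjusted p = 0.477). Since the edit is not described, the mRNA level cannot test the genotype labels. The tumour line's markers were abundant, with VIM, KRT8, KRT18 and 6 others summing to 13168 to 15695 CPM in CDK4WT and 11969 to 15310 CPM in CDK4KO. Counts were also assigned to human genes that mark other cell types. The host was a mouse, and how host reads were handled is not stated. Whether these counts come from the human tumour cells or from mouse reads was not tested. Fibroblast markers were measured for 5 of 9 genes and summed to 784 to 1202 CPM in CDK4WT and 686 to 1189 CPM in CDK4KO. The 5 of 8 leukocyte and 4 of 7 endothelial markers measured summed to at most 28.4 CPM in any library. Muscle markers (2 of 8 measured) summed to 6.85 to 26.2 CPM in CDK4WT and 3.96 to 8.57 CPM in CDK4KO, and adipocyte markers (2 of 6) to 2.95 to 9.65 and 2.53 to 3.64 CPM. In bulk tumours fewer cells of a type and less RNA per cell cannot be told apart, and the part of these markers in the results below was not tested.

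Levels were compared between members per length, as reads per kilobase of annotated exon, scaled as CPM are (RPKM). In CDK4WT, SLC38A2 (the glutamine and alanine importer SNAT2) stood highest at 118 RPKM and ATF4 next at 97.8 RPKM, the 98.6th and 97.9th percentiles of all genes over the 8 libraries. CEBPB, a C/EBP partner, EIF4EBP1, the translation repressor 4E-BP1, and SLC1A5, the glutamine importer ASCT2, followed at 62.2, 51.5 and 51.1 RPKM. The 11 synthetases ran from 9.72 RPKM for CARS1 to 46.4 RPKM for GARS1. Among the low members, CHAC1 stood at 1.98, PHGDH at 2.11 and ATF3 at 3.18 RPKM. ASNS, which makes asparagine and is among the best known ATF4 targets, was the lowest at 0.526 RPKM, the 7.31th percentile. Its counted level is uncertain, since 1985 of its 4455 annotated exon bases (44.6%) lie in exons of another gene on the same strand, AC079781.5, in GENCODE 29. Values per length also depend on the exon union used as divisor, which was 9217 bases for PHGDH, 10037 for CARS1 and 4498 for AARS1. In CDK4WT, CARS1 and AARS1 stood at 97.6 and 112.8 CPM but at 9.72 and 25.1 RPKM.

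**Figure D2:**
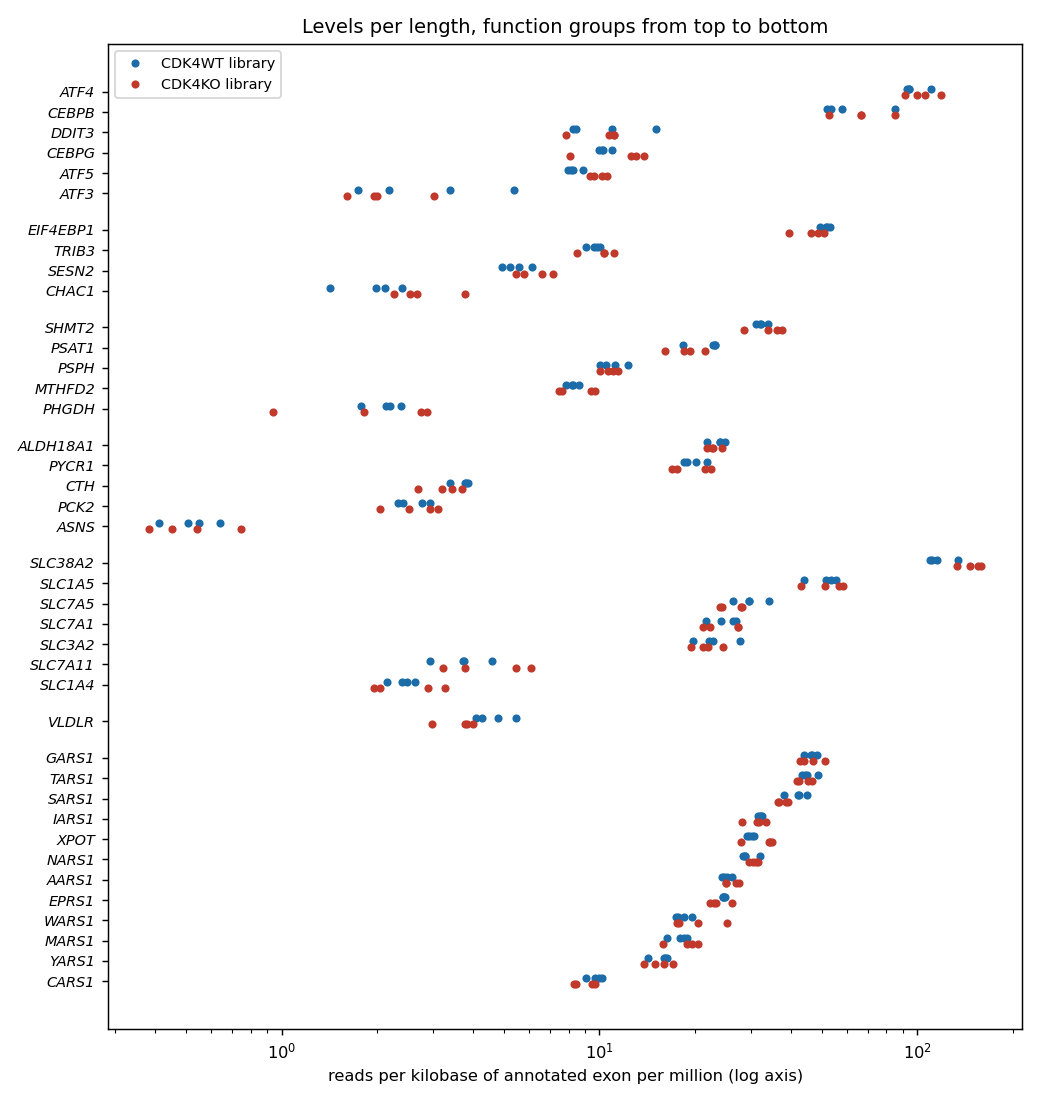
Level of each measured member per length in each of the 8 libraries, on a log axis in RPKM, with CDK4WT in blue and CDK4KO in red. SLC38A2 (118 RPKM in CDK4WT) and ATF4 (97.8) lie farthest right and ASNS (0.526) farthest left, and the genotypes are apart in ATF5 and VLDLR only.

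The members lay evenly on both sides of 0. Their median log2 fold change was 0.004, beside 0.004 over all 13546 genes, with 20 members positive and 20 negative. With edgeR's quasi-likelihood F test and Benjamini-Hochberg adjustment over all genes (threshold 0.05), 0 of 40 members and 8 of all genes (0.0591%) passed. DESeq2 called 2 members among 315 of all genes, and limma voom 2 among 285. At an unadjusted p of 0.05 the count was 6 of 40 (15%), close to the 13.0% of all genes. SLC38A2, ATF5 and CHAC1 were higher and VLDLR, SLC7A5 and SARS1 lower. All 4 CDK4KO libraries lay beyond all 4 CDK4WT libraries in 2 members (5%, against 7.68% of all genes), ATF5 above and VLDLR below. In 23 members the log2 fold change was within 0.1 of 0, and in 35 the 95% interval from the edgeR fit stayed inside a 1.5-fold change either way. The 5 whose intervals reached beyond that limit were ATF3, CHAC1, PHGDH, SLC7A11 and VLDLR. The VLDLR interval, 0.661 to 0.929 times, was not wide but lay low. Without CDK4KO replicate 1 one member passed (CEBPG, below) beside 183 of all genes.

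**Figure D3:**
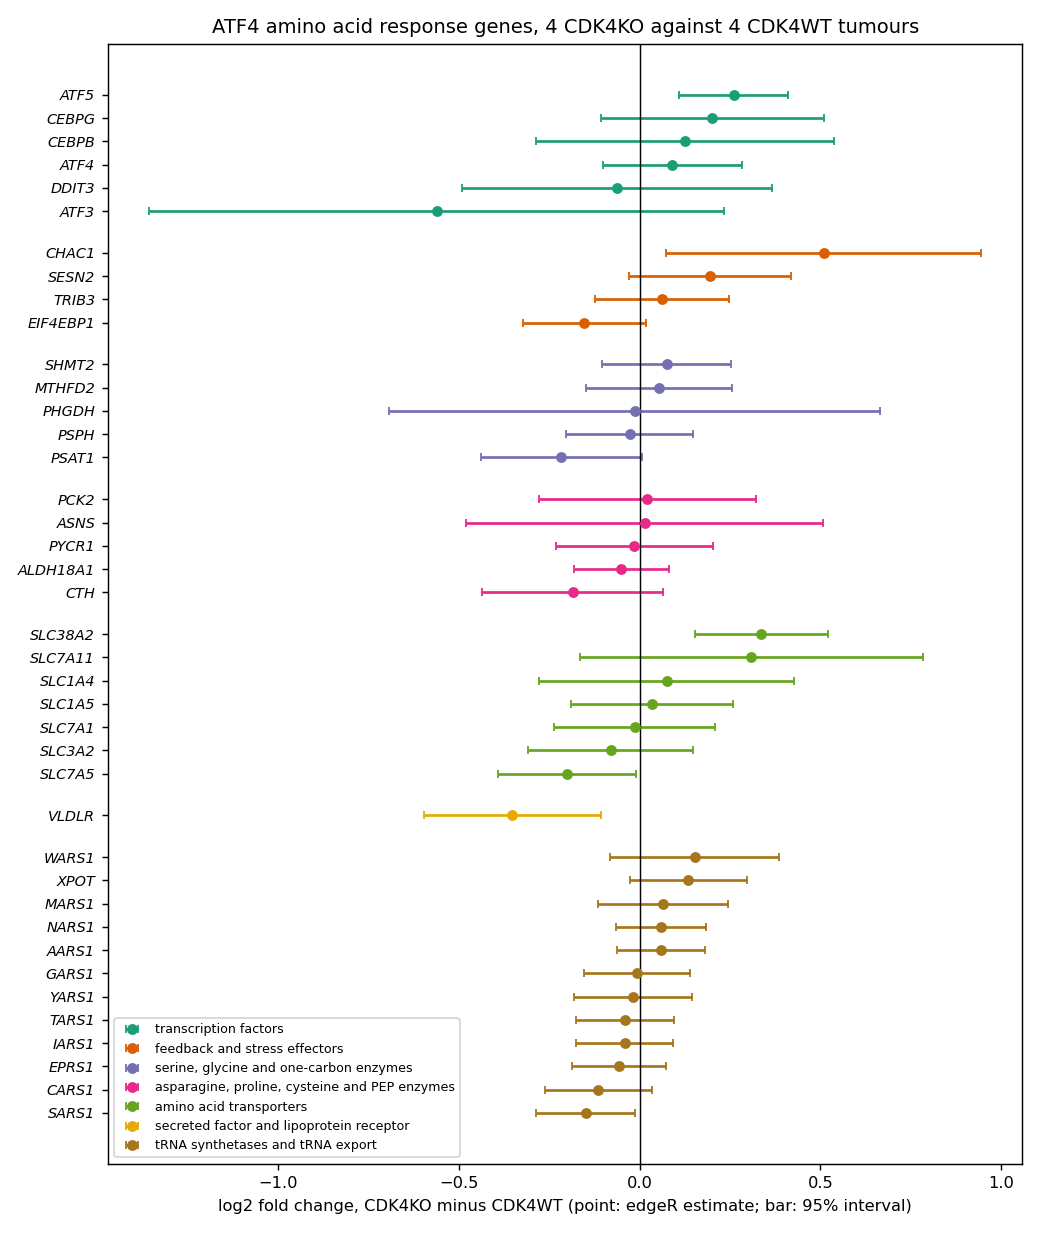
Log2 fold change of each of the 40 measured members, CDK4KO minus CDK4WT, as edgeR's estimate with its 95% interval, in 7 function groups. Estimates run from -0.56 for ATF3 to 0.51 for CHAC1, and the intervals of 6 members (ATF5, CHAC1, SLC38A2, SLC7A5, VLDLR and SARS1) do not cross 0 before adjustment over all genes.

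Among the transcription factors ATF4 itself (ENSG00000128272, chromosome 22, 39519695 to 39522685, hg38) had overlapping values. Its level was 233, 238, 236 and 277 CPM in CDK4WT replicates 1 to 4 and 231, 265, 299.7 and 252 CPM in CDK4KO replicates 1 to 4. CDK4WT replicate 4 lay inside the CDK4KO range and CDK4KO replicate 1 below every CDK4WT library (log2 fold change 0.09 ± 0.09; edgeR adjusted p = 0.701). The interval allows 0.932 to 1.22 times the CDK4WT level. ATF5 (ENSG00000169136, chromosome 19, 49928702 to 49933935), a related bZIP factor that is itself under translational control by eIF2, was measured at 23.5, 24.4, 24.1 and 26.1 CPM in CDK4WT. In CDK4KO it was at 27.7, 28.5, 30.2 and 31.1 CPM, above every CDK4WT library (log2 fold change 0.26 ± 0.07, higher in 4 of 4; unadjusted p = 0.00302, edgeR adjusted p = 0.168). DESeq2 and limma voom called it (adjusted p = 0.0383 and 0.0387), and over all settings tried the adjusted p ran from 0.0383 to 0.425. Of its 2954 exon bases 26.2% overlap other genes, most of them the opposite-strand gene NUP62. The mean of NUP62 was 95.8 ± 3.68 CPM (SD, n = 4) over CDK4WT libraries and 107 ± 2.98 CPM over CDK4KO libraries (log2 fold change 0.15 ± 0.05; edgeR adjusted p = 0.263). Whether counting used strand is unstated, and where NUP62 and ATF5 overlap their reads cannot be told apart.

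CEBPG (ENSG00000153879, chromosome 19, 33373330 to 33382686), the C/EBP partner that pairs with ATF4 on many targets, stood at 43.8, 45.0, 45.4 and 48.2 CPM in CDK4WT. In CDK4KO the values were 35.7, 60.9, 57.6 and 55.4 CPM. Replicate 1 was below every CDK4WT library and replicates 2 to 4 above every one of them (log2 fold change 0.20 ± 0.14; edgeR adjusted p = 0.580). Without CDK4KO replicate 1 the log2 fold change was 0.34 and the adjusted p 0.0304, and over all settings the adjusted p ran from 0.0168 to 0.774. DDIT3 (ENSG00000175197, chromosome 12, 57516588 to 57521737), the pro-death factor CHOP, was at 11, 10.8, 14.3 and 19.7 CPM in CDK4WT and 10.3, 14.6, 14.0 and 14.5 CPM in CDK4KO (-0.06 ± 0.19; adjusted p = 0.922). CDK4WT replicate 4 was the highest of the 8 and CDK4KO replicate 1 the lowest. Of the DDIT3 exon bases 39.6% overlap other genes, in part on the same strand, so its count is uncertain. ATF3, an early stress-induced repressor and activator, had the widest spread of any member, 7.05, 8.82, 13.7 and 21.7 CPM in CDK4WT against 7.86, 12.2, 8.06 and 6.49 CPM in CDK4KO (-0.56 ± 0.35; adjusted p = 0.546). CEBPB ran from 102 to 167 CPM in CDK4WT and from 104 to 167 CPM in CDK4KO. All 6 factors were highest in replicate 4 among the CDK4WT libraries, as were 35.0% of all members and 32.7% of all genes. That library also had the highest mean of the hypoxia genes described below.

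The feedback and stress effectors had 3 positive and 1 negative fold change. CHAC1 (ENSG00000128965, chromosome 15, 40952962 to 40956519), a gamma-glutamyl cyclotransferase that breaks down glutathione, was at 2.92, 4.93, 4.34 and 4.09 CPM in CDK4WT and 4.65, 5.51, 7.79 and 5.22 CPM in CDK4KO. It was the largest positive estimate among members, and the groups met at one point, since CDK4KO replicate 1 lay below CDK4WT replicate 2 (log2 fold change 0.51 ± 0.20, 1.05 to 1.92 times as an interval; unadjusted p = 0.0260, edgeR adjusted p = 0.312). SESN2, the leucine sensor Sestrin 2, was at 17.0, 18.1, 19.3 and 21.1 CPM in CDK4WT and 18.9, 22.8, 24.6 and 20.0 CPM in CDK4KO (0.19 ± 0.10; adjusted p = 0.448). TRIB3, a pseudokinase that restrains AKT and ATF4, overlapped between the groups at 33.0, 34.5, 31.2 and 33.7 CPM against 29.2, 35.4, 38.1 and 35.4 CPM (0.06 ± 0.08; adjusted p = 0.796). EIF4EBP1 had the only negative fold change of the group, with 53.1, 55.9, 57.0 and 55.2 CPM in CDK4WT and 42.5, 52.2, 54.7 and 49.6 CPM in CDK4KO, where replicate 1 was the lowest (-0.15 ± 0.08; edgeR adjusted p = 0.436).

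**Figure D4:**
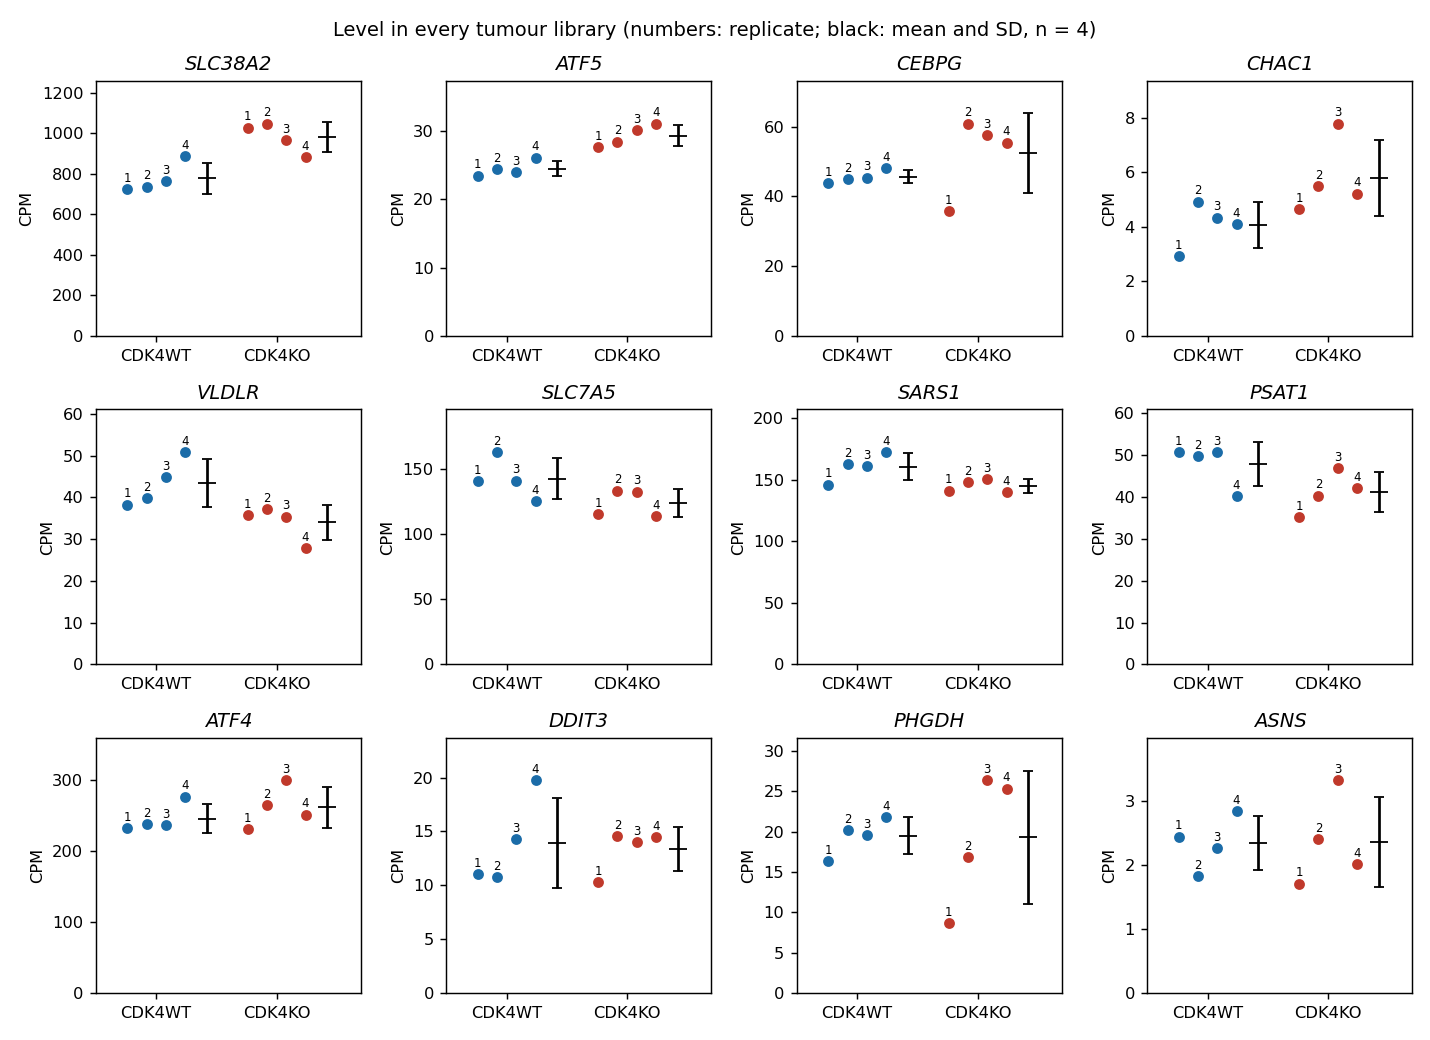
CPM of 12 members in every library, with replicate numbers beside the points and the mean and SD of each genotype (n = 4) in black; each y axis starts at 0. ATF5 is higher and VLDLR lower in every CDK4KO library, CEBPG and PHGDH are lowest in CDK4KO replicate 1, and ASNS and ATF4 overlap.

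The serine, glycine and one-carbon enzymes, 5 genes in all, had -0.01 as their median log2 fold change, and none was past an unadjusted p of 0.05. PSAT1 (ENSG00000135069, chromosome 9, 78297143 to 78330093), the aminotransferase of serine synthesis, was at 50.7, 49.8, 50.7 and 40.1 CPM in CDK4WT and 35.3, 40.3, 47.0 and 42.2 CPM in CDK4KO. CDK4WT replicates 1 to 3 sat above all CDK4KO libraries and replicate 4 among them (-0.22 ± 0.10; unadjusted p = 0.0554, edgeR adjusted p = 0.397). PHGDH (ENSG00000092621, chromosome 1, 119648411 to 119744226), which commits a glycolytic intermediate to serine, was at 16.3, 20.2, 19.6 and 21.8 CPM in CDK4WT but spread over 8.68, 16.8, 26.3 and 25.3 CPM in CDK4KO. The highest CDK4KO tumour had 3.03 times the PHGDH level of the lowest, and the group means were 19.5 ± 2.30 CPM for CDK4WT against 19.3 ± 8.26 CPM (SD, n = 4; log2 fold change -0.01 ± 0.30; edgeR adjusted p = 0.990; interval 0.619 to 1.58 times). SHMT2 and MTHFD2 are the mitochondrial enzymes that pass the serine carbon to folate. SHMT2 was at 150.3, 156, 155 and 164 CPM against 138, 176, 182 and 164 CPM, with overlap (0.07 ± 0.08; adjusted p = 0.736). MTHFD2 had a log2 fold change of 0.05 ± 0.09 (adjusted p = 0.845). Of its exon bases 33.2% overlap other genes on the opposite strand, so its count is uncertain. PSPH, the phosphatase that finishes serine synthesis, was at -0.03 ± 0.08 and shares sequence with a pseudogene, so its count is uncertain. Of 9 other serine and folate enzymes measured, 0 passed edgeR's test and 0 an unadjusted p of 0.05, against 13.0% of all genes. SFXN1, the mitochondrial serine importer, was at -0.06 ± 0.06.

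Enzymes for asparagine, proline, cysteine and phosphoenolpyruvate showed no member past an unadjusted p of 0.05. ASNS (ENSG00000070669, chromosome 7, 97852118 to 97872542) was at 2.44, 1.83, 2.26 and 2.84 CPM in CDK4WT and 1.71, 2.41, 3.32 and 2.01 CPM in CDK4KO, with the groups overlapping (0.01 ± 0.22; edgeR adjusted p = 0.988). CTH, cystathionine gamma-lyase of the transsulfuration route, was at 9.21, 8.20, 9.29 and 9.12 CPM against 7.73, 8.94, 8.32 and 6.49 CPM (-0.19 ± 0.11; adjusted p = 0.530). ALDH18A1, the first enzyme of proline synthesis, varied least in the group, at 90.5, 82.2, 93.8 and 90.0 CPM in CDK4WT and 82.0, 85.8, 91.4 and 85.0 CPM in CDK4KO (-0.05 ± 0.06; edgeR adjusted p = 0.761). PYCR1, the last enzyme of that route, and PCK2, the mitochondrial phosphoenolpyruvate carboxykinase, stood at -0.01 ± 0.10 and 0.02 ± 0.14 (adjusted p = 0.969 and 0.966). Of the PYCR1 exon bases 29.7% overlap other genes, in part on the same strand, so its count is uncertain.

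The transporters included the member with the smallest p, SLC38A2 (ENSG00000134294, chromosome 12, 46358189 to 46372867). It was at 722, 736, 763 and 885 CPM in CDK4WT and 1027, 1047, 965 and 883 CPM in CDK4KO. Only CDK4WT replicate 4 and CDK4KO replicate 4 met, within about 2 CPM (log2 fold change 0.34 ± 0.08, 1.11 to 1.44 times as an interval; unadjusted p = 0.00204, edgeR adjusted p = 0.151). DESeq2 and limma voom called it (adjusted p = 0.00910 and 0.0210), and over all settings the adjusted p ran from 0.00910 to 0.396. SLC7A5 (ENSG00000103257, chromosome 16, 87830023 to 87869488), the leucine transporter LAT1, went the other way at 140.4, 163, 141 and 125 CPM against 115, 133, 132 and 114 CPM (-0.20 ± 0.09; unadjusted p = 0.0400, adjusted p = 0.358). Its heavy chain SLC3A2, which also carries SLC7A11, was at -0.08 ± 0.10 (adjusted p = 0.781). SLC7A11, the cystine importer xCT, was at 28.3, 44.2, 36.2 and 35.8 CPM in CDK4WT and 36.3, 58.9, 52.6 and 31.0 CPM in CDK4KO. Replicates 2 and 3 of CDK4KO were above every CDK4WT library and replicates 1 and 4 inside their range (0.31 ± 0.21; adjusted p = 0.578). SLC7A1, which imports arginine and lysine, and the neutral amino acid carriers SLC1A5 and SLC1A4 ran from -0.01 to 0.07, with adjusted p of 0.971, 0.919 and 0.885. Of the SLC1A5 exon bases 23.8% overlap other genes on the opposite strand, so its count is uncertain. Among 15 other amino acid transporters measured, 0 passed edgeR's test and 2 an unadjusted p of 0.05, against 13.0% of all genes. These were SLC36A4 at 0.21 ± 0.08 and the taurine carrier SLC6A6 at -0.31 ± 0.11.

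VLDLR (ENSG00000147852, chromosome 9, 2621834 to 2660053), a lipoprotein receptor induced by ATF4 in stressed cells and by hypoxia, was lower in every CDK4KO tumour. Its values were 38.3, 39.9, 44.8 and 50.9 CPM in CDK4WT and 35.7, 37.2, 35.4 and 27.8 CPM in CDK4KO (log2 fold change -0.35 ± 0.11, lower in 4 of 4; unadjusted p = 0.00926, edgeR adjusted p = 0.233; 0.10 to 0.490 over all settings). Genes of the hypoxia response, a list chosen with earlier results of these data known, lay the same way. That choice means their shared direction is no independent support. All 16 measured had negative fold changes with a median of -0.53. Of them, 0 passed edgeR's test over all genes and 16 an unadjusted p of 0.05, against 13.0% of all genes. Their mean log2 CPM per library was 7.66 to 8.14 in CDK4WT and 7.08 to 7.50 in CDK4KO. In both series CDK4WT replicate 4 was the highest library and CDK4KO replicate 4 the lowest. The part of hypoxia in the VLDLR difference was not tested.

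The 11 cytosolic tRNA synthetases and XPOT, the exporter of tRNA from the nucleus, were the steadiest group. Their median coefficient of variation was 5.26% in CDK4WT and 7.41% in CDK4KO, against 7.18% and 10.02% over all genes, and their fold changes stayed between -0.15 and 0.15. SARS1 (ENSG00000031698, chromosome 1, 109213918 to 109238169), which charges serine, had the smallest p at 146, 163, 161 and 172 CPM against 141, 148, 151 and 139.5 CPM (-0.15 ± 0.06; unadjusted p = 0.0346, edgeR adjusted p = 0.340). CDK4WT replicate 1 lay inside the CDK4KO range. XPOT was at 218, 223, 225 and 215 CPM in CDK4WT. In CDK4KO it was at 206, 251, 254 and 256 CPM, with replicate 1 below and replicates 2 to 4 above every CDK4WT library (0.13 ± 0.07; adjusted p = 0.474). WARS1, the tryptophan enzyme that interferon also induces, reached 160.1 CPM in CDK4KO replicate 4 and 112 to 130 CPM in the other CDK4KO libraries. The remaining 9, AARS1, GARS1, EPRS1, NARS1, MARS1, CARS1, IARS1, TARS1 and YARS1, had adjusted p of 0.509 to 0.976. Their 95% intervals lay between 0.833 and 1.18 times the CDK4WT level.

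Cytosolic synthetases and their scaffold proteins outside the list were also summed. The 12 genes, among them RARS1 and QARS1, summed to 1392 to 1397 CPM in CDK4WT and 1317 to 1333 CPM in CDK4KO, while the 12 listed synthetase and export genes summed to 1862 to 1974 and 1769 to 1985 CPM. Of the unlisted 12, 10 were negative with a median of -0.07. In this set 0 passed edgeR's test and 1 an unadjusted p of 0.05, against 13.0% of all genes. That gene was RARS1, for arginine, at -0.11 ± 0.05. No test of the difference between the listed and unlisted synthetases was made. Among 17 mitochondrial synthetases 11 were negative (median -0.08), 0 passed edgeR's test and 3 an unadjusted p of 0.05, against 13.0% of all genes. Of these 3, 2 were lower in CDK4KO and 1 was higher. The higher one was MARS2, for mitochondrial methionyl-tRNA, at 0.26 ± 0.10.

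Upstream of ATF4, 18 genes for eIF2, its kinases, its exchange factor eIF2B and its phosphatase had a median of -0.05, with 12 negative. None passed edgeR's test, and 3 passed an unadjusted p of 0.05, all lower. Over all genes 13.0% passed that unadjusted p and 7.68% had genotypes without overlap. The counts and separations in this paragraph are to be read beside these shares. EIF2B2, the beta subunit of eIF2B, was at 72.6, 68.7, 65.0 and 68.2 CPM in CDK4WT and 59.5, 61.9, 49.8 and 44.7 CPM in CDK4KO, without overlap (-0.35 ± 0.10; edgeR adjusted p = 0.190). EIF2B5, the catalytic subunit, was at -0.14 ± 0.05. Of 25 measured genes that carry amino acid signals to mTORC1, 0 passed and 3 reached an unadjusted p of 0.05. CASTOR2, related to the arginine sensor CASTOR1, was at 18.5, 17.3, 16.9 and 16.0 CPM against 23.4, 20.1, 24.8 and 19.8 CPM, again without overlap (0.36 ± 0.09; adjusted p = 0.163), and SESN3, a Sestrin, at 0.64 ± 0.20. Of 21 other reported ATF4 targets 14 were negative (median -0.09), 0 passed and 3 reached an unadjusted p of 0.05. DDIT4, an mTORC1 inhibitor that hypoxia also induces, was at 236, 292, 291 and 403 CPM in CDK4WT and 230.1, 178, 188 and 198 CPM in CDK4KO without overlap (-0.62 ± 0.15; adjusted p = 0.143; the part of the lower hypoxia genes in it was not tested), and the mitochondrial protease LONP1 at -0.17 ± 0.06.

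Among the 4 CDK4KO tumours replicate 1 was the lowest in 22 of 40 members (55.0%), against 29.6% of all genes, and the highest in 1 (SLC1A4), against 30.1% of all genes. Replicates 2 and 3 were the highest in 17 members each (42.5%), against 21.1% and 21.0% of all genes. The mean log2 CPM of the 40 members was 5.77 in CDK4KO replicate 1, the lowest of all 8 libraries, and 6.06 in CDK4KO replicate 3, the highest. CDK4WT libraries lay between at 5.85 to 5.97. Members also ran together by library within CDK4WT. There replicate 1 was the lowest in 18 members (45.0%), against 24.6% of all genes, and the highest in 3 (7.5%), against 25.6%. CDK4WT replicate 2 was the highest in 17 members (42.5%), against 24.9% of all genes. Among CDK4KO libraries, all 4 feedback effectors were lowest in replicate 1 and highest in replicate 3. Without CDK4KO replicate 1 the genotypes did not overlap in 8 of 40 members (20.0%, against 16.7% of all genes), namely ATF5, CEBPG, CHAC1, MARS1, SLC38A2, TRIB3 and XPOT above and VLDLR below. Without CDK4KO replicate 1, 8 of 40 members passed an unadjusted p of 0.05, against 17.7% of all genes. Without CDK4KO replicates 1 and 4 together, 12 of 40 did, against 20.0% of all genes. Replicates 1 and 4 were the lowest CDK4KO libraries in 22 and 15 members. Leaving them out therefore raises the CDK4KO level of these members, and no direction is read from fits or separations without them.

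**Figure D5:**
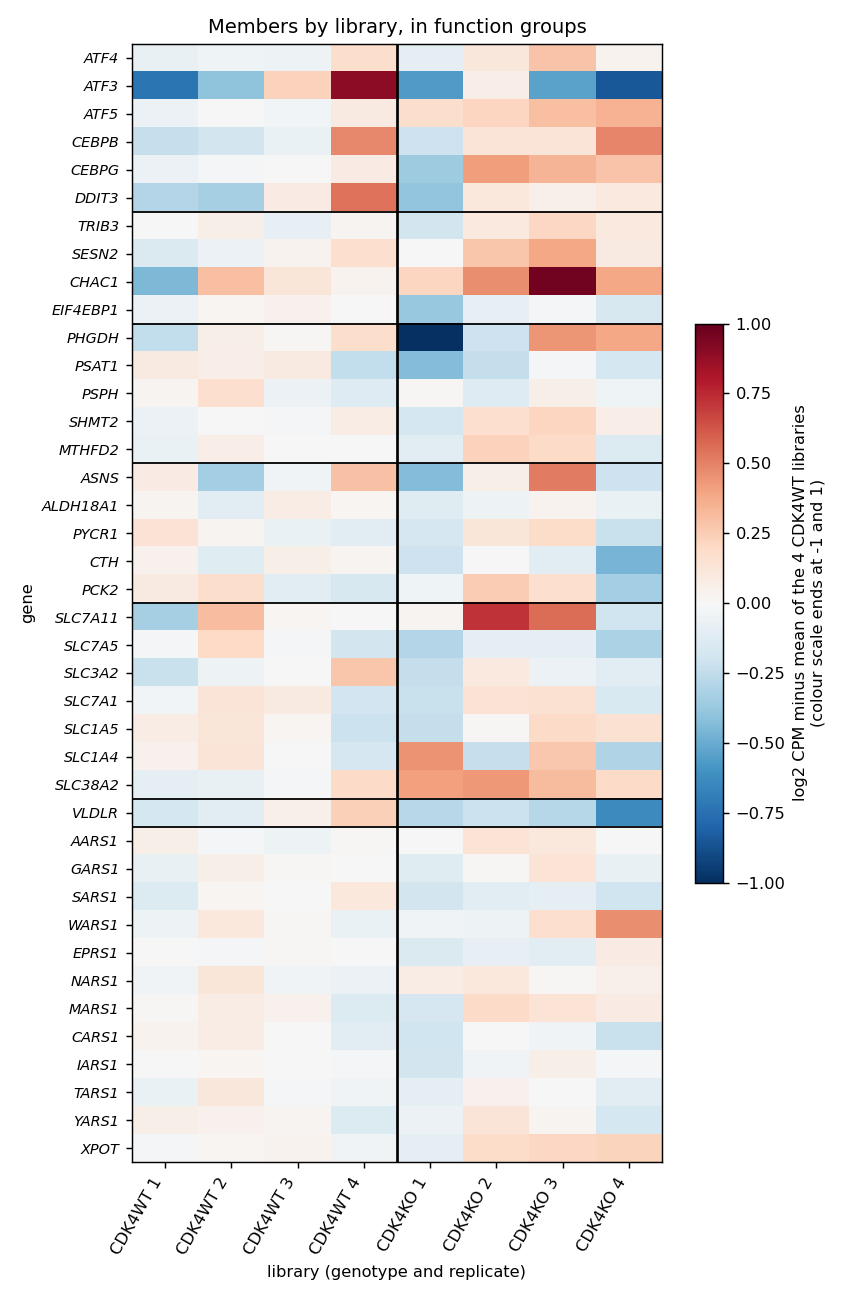
Log2 CPM of each measured member in each library minus the mean of the 4 CDK4WT libraries, in function groups; red is above and blue below that mean, and the colour scale ends at -1 and 1. CDK4KO replicate 1 is mostly blue, CDK4KO replicates 2 and 3 mostly red, and the synthetases at the bottom are pale apart from WARS1 in CDK4KO replicate 4.

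Of the members on chromosome 12, 3 lie close to CDK4. DDIT3 is 226 kb from the gene, MARS1 230 kb and SHMT2 513 kb. Their log2 fold changes were -0.06 ± 0.19, 0.06 ± 0.08 and 0.07 ± 0.08, none past an unadjusted p of 0.05 (edgeR adjusted p = 0.922, 0.776 and 0.736). MARS1, for methionine, was at 126, 132, 129 and 114 CPM in CDK4WT and 111, 143, 138 and 133 CPM in CDK4KO. DDIT3 and MARS1 overlap tail to tail on opposite strands over 355 exon bases. In all, 39.6% of the DDIT3, 13.3% of the MARS1 and 9.51% of the SHMT2 exon bases overlap other genes, so a part of these counts is uncertain.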

How the data were processed

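RNA was extracted from 8 tumours (4 CDK4WT, 4 CDK4KO), and mRNA libraries were made and sequenced, per the labels' protocols. The deposited values are raw read counts per Ensembl gene that the authors made on build hg38. The tools named in the submitters' processing notes are cutadapt, STAR 2.7.11a, featureCounts 2.0.4 and DESeq2 1.46.0. Neither the gene annotation, nor whether counting used strand, nor how host reads were handled is stated there. Each of the 13546 genes had over 1 CPM in at least 4 libraries, so genes below that level were not analysed here.

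From these counts edgeR 4.0.16 (R 4.3.3) gave TMM-scaled CPM and quasi-likelihood tests over the whole table, with Benjamini-Hochberg adjustment and a threshold of 0.05. Its low-count filter removed 0 genes, and the biological coefficient of variation was 11.7%. The 95% intervals come from the same fit. The code was tested on simulated data. Symbols were found for 13524 genes and GENCODE 29 coordinates for 13455. RPKM used GENCODE 29 exon unions. Alternatives were DESeq2 1.42.0, limma 3.58.1 (voom), other scalings and filters, a replicate block, and fits without 1 or 2 libraries.

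Values in every library are given for 8 known targets (ATF4, ASNS, DDIT3, TRIB3, CHAC1, SLC7A11, PHGDH and PSAT1) and for the 2 members with the smallest p in each function group. CEBPG, SESN2, WARS1 and the library values of MARS1 were added after their values were seen. Pathway lists name the 2 genes with the smallest p, except genes not reported here. The members and lists were chosen with earlier results of these data known. Promoter windows are RefSeq's.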

Additional observations from a re-analysis of the deposited data

Results flagged for a closer look

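In 7 of the 80 gene and genotype groups checked, a single library stood apart from the other 3 by more than Dixon's 95% critical value, where chance gives about 1 in 20. CDK4WT replicate 4 was high for ATF4 at 277 CPM, with the others at 233 to 238 CPM. The same library was low for PSAT1 at 40.1 CPM (others 49.8 to 50.7) and for YARS1, the tyrosyl-tRNA synthetase, at 116 CPM (others 131 to 134). CDK4WT replicate 2 was low for CTH at 8.20 CPM (others 9.12 to 9.29) and high for NARS1, the asparaginyl-tRNA synthetase, at 131 CPM (others 116 to 118). CDK4KO replicate 1 was low for DDIT3 at 10.3 CPM (others 14.0 to 14.6) and for XPOT at 206 CPM (others 251 to 256).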

How the results depend on the processing

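Over all genes, edgeR's count of 8 became 14 with library size only as scaling (7 higher, against 6 of 8), 19 with a mean of at least 5 CPM, 315 with DESeq2, 285 with limma voom, 447 without CDK4KO libraries 1 and 4, 147 without CDK4WT library 4 and CDK4KO library 1, and 0 to 183 without 1 library, the highest without CDK4KO replicate 1. The count of members past the test, 0, became 2 with DESeq2 and 2 with voom (ATF5 and SLC38A2), 1 without CDK4KO libraries 1 and 4, 2 without CDK4WT library 4 and CDK4KO library 1, and 0 to 1 without 1 library. Members at an unadjusted p of 0.05, 6, became 11 with voom, 12 without CDK4KO libraries 1 and 4 and 12 without CDK4WT library 4 and CDK4KO library 1, while the share of all genes went from 13.0% to 20.8%, 20.0% and 17.3%. Members whose genotypes did not overlap, 2, became 2 to 8 without 1 library, while the share of all genes went from 7.68% to between 9.29% and 16.7%. ATF5, SLC38A2 and VLDLR were past an unadjusted p of 0.05 in all 19 settings. These settings include the main fit and the fit without a low-count filter, which repeats the main fit because the filter removed 0 genes.

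Of 718 member fold changes under alternatives, 651 kept direction and side of the threshold, 8 moved past it and 59 changed sign, in 16 members whose fold change was at most 0.13 in size. The cause of these sign changes was not tested. The values without a low-count filter repeat the main fit and so could not change. With voom the log2 fold changes were DDIT3 0.084, PHGDH 0.011, PYCR1 0.070, SLC3A2 0.016, SLC7A1 0.026, SLC1A4 -0.014, GARS1 0.031 and YARS1 0.0089. Without CDK4KO libraries 1 and 4 they were DDIT3 0.036, PHGDH 0.14, PYCR1 0.15, SLC3A2 0.013, SLC7A1 0.14, GARS1 0.077, IARS1 0.013, TARS1 0.021 and YARS1 0.076. Without CDK4WT library 4 and CDK4KO library 1 they were DDIT3 0.25, PHGDH 0.28, PCK2 -0.011, SLC3A2 0.068, SLC1A4 -0.13 and GARS1 0.026. Without 1 library the ranges were ASNS -0.19 to 0.14, CEBPB -0.0040 to 0.31, DDIT3 -0.17 to 0.15, GARS1 -0.059 to 0.027, IARS1 -0.076 to 0.0026, MTHFD2 -0.012 to 0.11, PCK2 -0.064 to 0.13, PHGDH -0.20 to 0.23, PSPH -0.073 to 0.031, PYCR1 -0.085 to 0.050, SLC1A4 -0.073 to 0.18, SLC1A5 -0.034 to 0.12, SLC3A2 -0.15 to 0.017, SLC7A1 -0.076 to 0.050 and YARS1 -0.069 to 0.031.

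With the replicate number as a block 13 genes and 0 members passed, and ASNS was at -0.0081. Same-numbered libraries had correlations of deviations from -0.0313 to 0.194, so the numbers were not taken as pairing the tumours. CHAC1 and ASNS had no value with a mean of at least 5 CPM.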
